A study of Rattus norvegicus with 10 samples.

Results

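The 10 libraries of this series hold messenger RNA from muscle of Sprague dawley rats, and they fall into 2 sets when they are ordered by how much of the slow-fibre myosin Myh7 they contain. The sets were chosen by measured values: libraries with under 10000 CPM (a gene's count as a share of the library total) of the skeletal actin Acta1 were set aside, and the others were called slow-rich at 100 CPM of Myh7 or more and slow-poor below it. By this rule 3 of the 10 libraries were slow-rich (MPS 10, MPS 11 and TZG 27), 6 were slow-poor (TZG 26, TZG 43 and NC 4, 5, 6 and 7), and 1 was set aside (MPS 14). The series title speaks of myofascial pain syndrome, in which muscle holds tender, taut bands, and MPS is taken as its abbreviation. TZG libraries are titled as drug samples, and the title names the drug as an extract, Tianhe Zhuifeng. NC is not spelled out, and the labels do not say whether the TZG rats also had the pain model. No muscle, depth within a muscle, dose, time, age or sex is named, and separate animals are not stated, so p-values here cover the spread between the samples alone, which may be technical. The sets cut across the labels unevenly: the slow-rich set had 2 MPS, 1 TZG and 0 NC libraries, and the slow-poor set had 0 MPS, 2 TZG and 4 NC libraries.

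Skeletal muscle mixes slow (type I) fibres, which contract slowly, resist fatigue and burn fuel in mitochondria, with fast (type II) fibres, which contract quickly and rely more on glycolysis. The 2 kinds carry different isoforms of myosin, troponin and the calcium pump. In most rat limb and back muscles the slow fibres lie mainly in the deep part, next to bone, and the surface part is almost purely fast, so muscles and regions of 1 muscle differ widely in slow-fibre content.

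Myh7, the heavy chain of slow myosin, stood at 1310, 603 and 1083 CPM in TZG 27, MPS 10 and MPS 11. In TZG 26 it was 0.191 CPM, in TZG 43 it was 26.8 CPM, and in NC 4, 5, 6 and 7 it was 0.147, 0.317, 0.372 and 3.05 CPM. The libraries nearest the threshold were MPS 10 above it and TZG 43 below it, with no library between 26.8 and 603 CPM among the 9 kept. Tnnt1, the slow troponin T, was 469, 247 and 429 CPM in the slow-rich libraries and between 0 and 4.47 CPM in the slow-poor ones. Myl2, the regulatory light chain of slow and cardiac myosin, had 416, 186 and 553 counts in TZG 27, MPS 10 and MPS 11 and 0 counts in the other 7 libraries, MPS 14 among them. Both markers placed the 9 libraries as Myh7 did. Per unit of transcript length (the authors' FPKM), Myh7 came to 20.6%, 9.11% and 16.5% of the fast myosin Myh4 in the slow-rich libraries and to at most 0.587% in the slow-poor ones. Slow-rich is therefore a relative name, since Myh4 was the larger of the 2 in all 10 libraries. In MPS 14 Acta1 was 2320 CPM, against 34510 to 46640 CPM in the other 9.

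**Figure D1:**
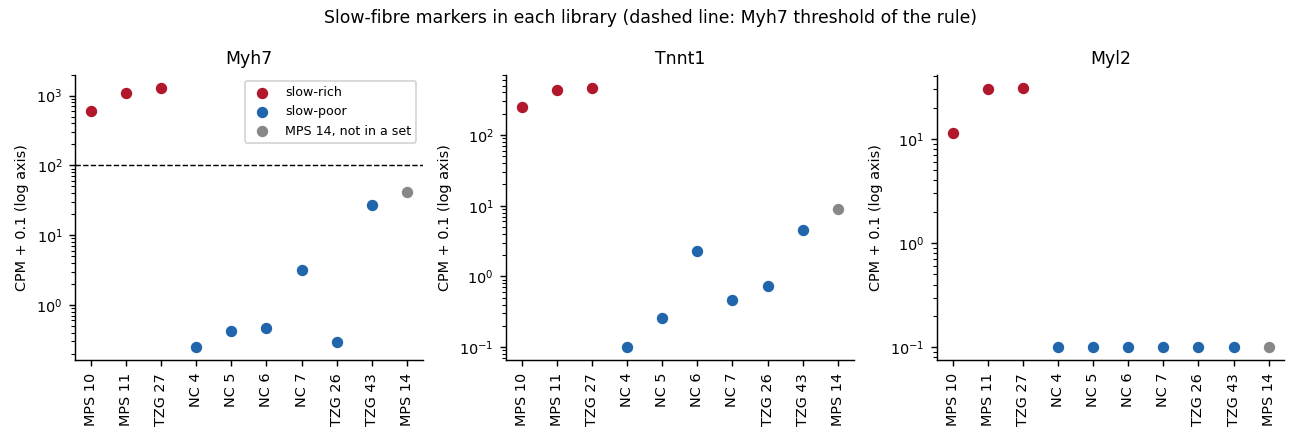
CPM of the slow-fibre markers Myh7, Tnnt1 and Myl2 in each of the 10 libraries, with 0.1 added, on log axes; the dashed line is the Myh7 threshold. The 3 slow-rich libraries (red) stand at 603 CPM of Myh7 or more and the 6 slow-poor ones (blue) at 26.8 CPM or less.

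Total counts ran from 12616160 to 18179144 per library, and between 18.7% and 38.6% of them came from the mitochondrial genome in the 9 libraries compared. TZG 43 stood apart from the other slow-poor libraries, with the highest mitochondrial share, 2511 normalised CPM of the collagen Col1a1 against 106 to 421 in the other 5, and 73.7 of the endothelial cadherin Cdh5 against 285 to 386. The Y-linked genes Kdm5d and Eif2s3y had at least 112 and 286 counts in every one of the 10 libraries. Ddx3y, also Y-linked, had 0 counts in all 10, and Usp9y had 16 counts in MPS 10 and 0 elsewhere. Below, levels are CPM scaled by TMM factors, which are meant to reduce differences in library composition, and differences are means of log2(normalised CPM + 0.5). The factors went with the label: 1.063 to 1.285 in NC and 0.7563 to 0.9877 in the TZG and MPS libraries kept. Because Myh7 of these same libraries made the sets, differences between slow-rich and slow-poor libraries are described without a test.

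Outside the sarcomere isoforms, 12413 genes averaged 1 CPM or more. Of these, 109 (0.878%) were at least 2-fold higher in the slow-rich set with all 3 libraries above all 6, and 155 (1.25%) were at least 2-fold lower with all 3 below all 6. The leading higher genes included stress sensors of the Z-disc (the anchor of the thin filaments), the oxygen store myoglobin and tendon genes; the lower ones held most of the macrophage markers. Over all genes the median difference was 0.01. Of the 264 genes, 255 were protein coding.

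The largest difference was that of Ankrd2, an ankyrin repeat protein of the Z-disc and nucleus that responds to stretch and is known for its high level in slow muscle (chromosome 1:261281543-261291394 in the authors' table, whose build is not given in the sources used here). It stood at 43.5, 20.4 and 62.2 normalised CPM in TZG 27, MPS 10 and MPS 11. The slow-poor libraries ran from 0 to 1.97, with a median of 0.323, and 2 of them (TZG 43 and NC 7) had 0 counts. The log2 difference was 5.33, with an SD of 0.81 among the slow-rich and 0.99 among the slow-poor libraries. Thbs4, a thrombospondin of tendon and of the junction between muscle and tendon (chromosome 2:22343727-22385855), followed at 150.6, 63.2 and 33.8 normalised CPM against 0.29 to 4.40 (median 1.63), a log2 difference of 5.07 (SD 1.07 and 1.04). Both genes were far apart in the 2 sets, with no slow-rich library near the slow-poor range. The promoters of the leading genes are shown because these genes were high in the same 3 libraries. The naming rule leaves out features known only by an identifier; of its first 5 genes, 4 had an entry in the RefSeq promoter table (build GRCr8, 250 bases before to 50 after the start), and 3 are printed, read along the strand of the gene. They are Ankrd2 at chr1:250796169-250796468 (+ strand), Thbs4 at chr2:25760296-25760595 (- strand) and Mb, the myoglobin gene, at chr7:110647693-110647992 (- strand). Capitals mark matches on either strand to the MCAT element GGAATG, the E-box CAGCTG or the NFAT core GGAAAA.
Ankrd2: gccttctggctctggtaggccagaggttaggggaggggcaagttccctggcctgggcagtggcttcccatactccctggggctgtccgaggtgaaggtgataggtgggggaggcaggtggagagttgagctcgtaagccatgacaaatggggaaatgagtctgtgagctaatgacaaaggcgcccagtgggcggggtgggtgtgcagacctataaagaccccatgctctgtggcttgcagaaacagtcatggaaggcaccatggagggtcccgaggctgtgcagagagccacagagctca
Thbs4: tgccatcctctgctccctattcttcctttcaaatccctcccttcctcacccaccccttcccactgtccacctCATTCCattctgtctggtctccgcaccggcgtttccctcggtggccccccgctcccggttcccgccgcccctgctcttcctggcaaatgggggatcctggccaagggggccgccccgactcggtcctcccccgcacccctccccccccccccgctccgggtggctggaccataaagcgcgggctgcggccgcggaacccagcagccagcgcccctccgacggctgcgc
Mb: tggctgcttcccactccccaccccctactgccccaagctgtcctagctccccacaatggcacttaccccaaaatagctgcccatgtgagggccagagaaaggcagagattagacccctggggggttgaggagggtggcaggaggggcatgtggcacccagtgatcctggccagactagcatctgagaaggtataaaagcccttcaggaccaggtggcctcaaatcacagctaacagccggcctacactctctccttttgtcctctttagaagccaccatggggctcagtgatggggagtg
Thbs4 held 1 match, an MCAT element on the opposite strand, and these letters were found in neither of the others nor in the same window of Kera. Over all 33469 promoters of the table, 14.2% held the MCAT element, 15.1% the E-box and 24.7% the NFAT core.

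Other Z-disc genes were higher too. Csrp3, a LIM protein of the Z-disc that marks slow and stretched muscle, was 83.1, 46.9 and 196.8 normalised CPM in TZG 27, MPS 10 and MPS 11. The slow-poor libraries ran from 1.92 to 21.7 with a median of 3.12, and the highest was TZG 43, the slow-poor library with most Myh7. The log2 difference was 4.32 (SD 1.03 and 1.21). Hspb7, a small heat shock protein of muscle, was 170.1, 87.9 and 268.6 against 13.1 to 51.0 (median 32.6), a log2 difference of 2.40. Lmcd1, a LIM protein that acts on calcineurin signalling, differed by 1.34. These were the 4 of 28 Z-disc and stress genes that met the rule of no overlap and 2-fold, beside 0.878% of all genes. None met it in the other direction, and the list's median difference was 0.52 against 0.01 over all genes. Ankrd1, the relative of Ankrd2 best known from heart, differed by 0.30 and did not meet it.

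Of 7 genes of slow-type calcium handling, Atp2a2 and Casq2 were called higher and none lower, with a list median of 0.25. Of 12 genes of fast-type calcium handling 1 was called higher (Camk2b, by 1.40), 9 had a difference above 0, and the median was 0.45. Over all genes 0.878% were called higher. Atp2a2, the calcium pump of slow fibres and heart, stood at 569.5, 201.8 and 369.2 normalised CPM against a narrow range of 78.3 to 117.6 (median 103.4), a log2 difference of 1.80 (SD 0.75 and 0.20). Casq2, the slow and cardiac calsequestrin that stores calcium, was 43.6, 25.6 and 45.5 against 10.1 to 17.2 (median 14.4), a log2 difference of 1.42. Pln, the inhibitor of that pump, differed by 0.08. Sln, sarcolipin, another regulator of the pump, was 2.60 in TZG 27 and 26.1 and 12.0 in the MPS libraries against 1.05 to 5.54, so it was high in the slow-rich MPS libraries and not in the slow-rich TZG one. Atp1b1, a subunit of the sodium pump, was 78.0, 32.5 and 60.7 against 3.68 to 20.9 (median 8.85), a log2 difference of 2.49.

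Among genes of oxygen storage and fuel use, Mb stood at 4284, 5324 and 5333 normalised CPM in TZG 27, MPS 10 and MPS 11. The slow-poor libraries ran from 270.1 (TZG 43) to 1321 (NC 5), with a median of 408.7, and the log2 difference was 3.20 (SD 0.18 and 0.99). The slow-rich libraries were close together and the slow-poor ones spread widely, with NC 4 and NC 5 well above the other 4. Ldhb, the lactate dehydrogenase subunit of oxidative tissue, was 130.3, 60.1 and 143.3 against 15.3 to 21.7 (median 19.1), a log2 difference of 2.48. Fabp3, the fatty acid carrier of heart and slow muscle, was 112.5, 104.3 and 144.6 against 26.1 to 86.7 (median 32.9), a log2 difference of 1.59. Among the slow-poor libraries TZG 26 had the 86.7. Cox7a1, the muscle form of a cytochrome oxidase subunit, was low throughout, with 46, 79 and 80 counts in TZG 27, MPS 10 and MPS 11, 17 and 11 in TZG 26 and 43, 7 in NC 4 and 0 in NC 5, 6 and 7. Vegfa, the main capillary growth factor, differed by 1.29. It was 387.0, 518.2 and 378.2 against 78.6 to 293.7. By list, 1 of 57 nuclear respiratory chain genes, 1 of 32 of fatty acid use, 2 of 34 of glycolysis and glycogen (Ldhb and the lactate exporter Slc16a3, which differed by 1.20), 0 of 23 of the citric acid cycle and 0 of 13 of the mitochondrial genome were called higher, and none of these lists had a lower call. Over all genes 0.878% were called higher and 1.25% lower, and a single call in a list is not read as a result. Respiratory chain differences were small but mostly of 1 sign: 55 of 57 were above 0, against 6293 of 12413 genes in all, with a median of 0.435. Without TZG 26, 7 of the 57 were called and the median was 0.64. This sign did not hold within TZG, where the median of TZG 27 minus TZG 26 and 43 was -0.191. The slow-poor TZG libraries were also above the NC libraries, by a median of 0.771.

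**Figure D2:**
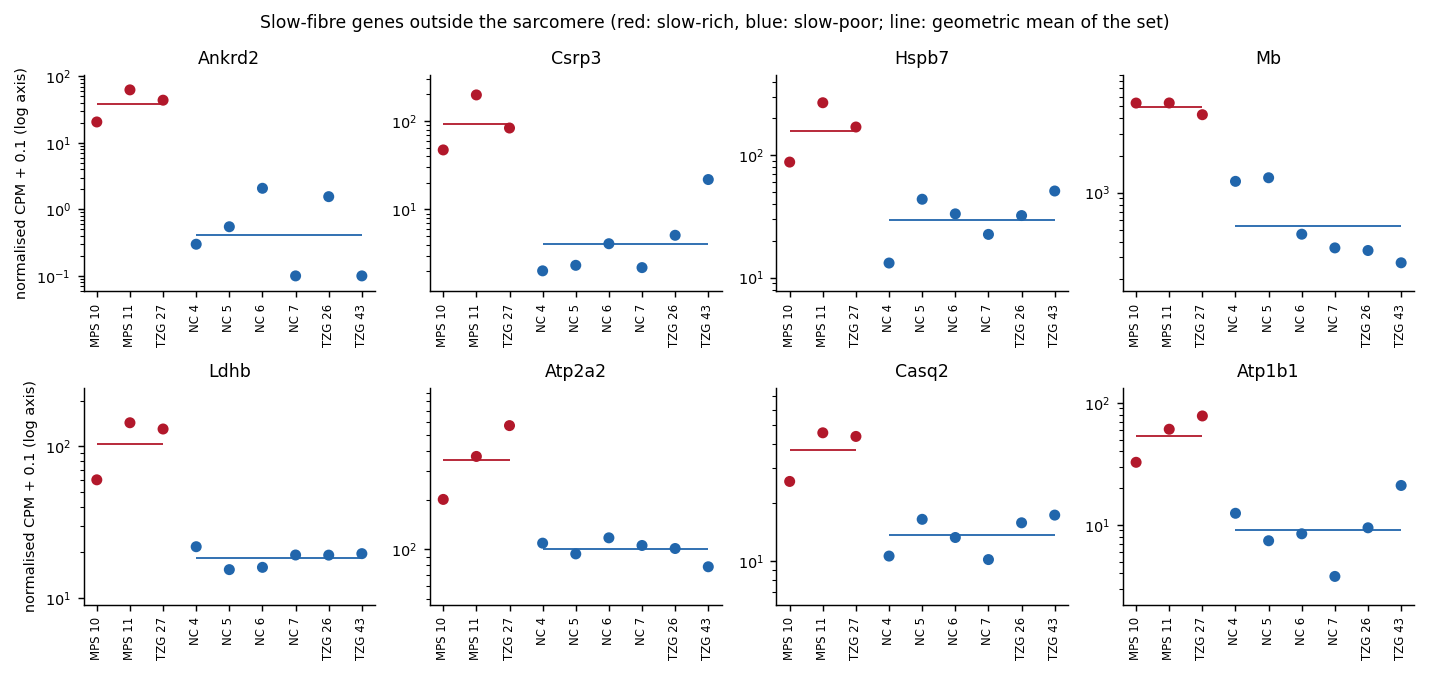
Normalised CPM plus 0.1, on log axes, of 8 genes outside the sarcomere in the 3 slow-rich (red) and 6 slow-poor (blue) libraries; lines are geometric means of each set. The 8 genes were taken from those called higher, so by that choice no slow-rich point lies at or below a slow-poor point. Mb spreads from 270.1 to 1321 among the slow-poor libraries.

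Of 42 regulators of fibre type 1 was called, the nuclear receptor Esrrg, which drives oxidative genes: 7.28, 5.46 and 8.82 normalised CPM in TZG 27, MPS 10 and MPS 11 against 1.27 to 4.35 (median 3.62), a log2 difference of 1.11. Its relative Esrra differed by 1.24 but overlapped, since TZG 26 had 62.4 and TZG 27 had 49.4. Ppargc1a, a coactivator of mitochondrial genes, differed by 0.26, and Nfatc1, a calcium-dependent factor of slow fibres, by -0.18. Tead1, a factor that binds MCAT elements, was 10.6, 6.20 and 4.23 against 1.31 to 4.38, so MPS 11 fell below the highest slow-poor library. The list's median difference was 0.20, and its 1 call stands beside 0.878% of all genes called higher. Esrrg was not called in plain CPM, with a pseudocount of 2, at a mean of 5 CPM or without NC 5 or MPS 11, and the list's count was 4 without MPS 10, 3 without TZG 27 and 2 without NC 4 or TZG 26.

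Tendon genes were called higher in 7 of 17 cases and lower in 0, beside 0.878% and 1.25% of all genes, with a median difference of 0.73. Besides Thbs4 they were Kera and Fmod, small proteoglycans of tendon and cornea matrix, Tnmd, a membrane protein of tendon cells, Col22a1, a collagen of the muscle and tendon junction, Scx, the tendon transcription factor, and Cilp. Scx was 21.1, 18.8 and 20.8 normalised CPM in TZG 27, MPS 10 and MPS 11 against 2.83 to 5.86 (median 4.79), a log2 difference of 2.04 (SD 0.09 and 0.35). Kera and Tnmd rested on few reads: Kera had 166, 13 and 51 counts against 0 to 5, and Tnmd 98, 15 and 43 against 0 to 9. Cilp2, a relative of Cilp outside the list, had 86, 61 and 26 counts against 0 to 3. The fibrillar collagens of tendon did not go with them: Col1a1 was 201.0, 170.5 and 161.4 against 106.2 to 2511, a difference of -0.71. The summed level of the tendon list was 728 to 1114 CPM in the slow-rich and 647 to 4294 CPM in the slow-poor libraries, the top value being that of TZG 43. Without TZG 27 the list's median difference was 0.15 in place of 0.73. Whether more tendon tissue in the slow-rich pieces had a part in the other differences was not tested.

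Macrophage markers were the list with most lower calls. Of 16 markers of 1 CPM or more, 14 were called lower and 0 higher, beside 1.25% and 0.878% of all genes. The list's median difference was -1.50. Adgre1, the F4/80 antigen of macrophages, was 1.61, 2.46 and 1.15 normalised CPM in TZG 27, MPS 10 and MPS 11 against 4.53 to 20.4 (median 7.77), a log2 difference of -1.97 (SD 0.42 and 0.74). Csf1r, the receptor of the macrophage growth factor, was 5.98, 8.22 and 11.2 against 11.9 to 51.5 (median 36.2), a difference of -1.87. Here MPS 11 and the lowest slow-poor library, TZG 26, nearly touched. Mrc1, a mannose receptor of resident macrophages, was 6.05, 9.02 and 5.74 against 14 to 33.6, and Lyz2, lysozyme, 43.7, 38.3 and 33.8 against 70.3 to 155.6. Fcgr1a differed by -1.95 and Cd163 by -1.40. The 2 markers not called were C1qa, at 11.1, 20.7 and 16.7 against 12.3 to 48.9, and Cd14, which differed by -0.66. The summed level of the list was 200.2, 228.7 and 204.1 CPM in the slow-rich libraries and 433.7 to 973.8 CPM in the slow-poor ones, so the sums did not overlap. MPS 14, outside the sets, had 10010 CPM of the macrophage and 8112 CPM of the lymphocyte list. Counted as slow-rich by its Myh7 per Acta1, it left 1 of 16 macrophage markers called and a median of -0.735. In these bulk samples, fewer macrophages and less RNA per macrophage cannot be told apart.

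Of the other cell types, the lymphocyte list had 3 of 6 genes called lower, all at low levels. They were Cd8a, the chemokine Cxcl13 and Ptprc, the pan-leukocyte antigen, which is not confined to lymphocytes. Ptprc was 1.302, 3.13 and 1.57 normalised CPM against 3.73 to 14.7. Fibroblast and fibro-adipogenic genes were called lower in 2 of 16 cases, Pdgfra and Efemp1, and higher in 0, with a median difference of -0.80. That count was 6 without TZG 27 and 1 without MPS 10 or NC 6. Pdgfra, the receptor that marks these cells, was 12.6, 6.87 and 11.1 against 15.2 to 26.9. Endothelial genes were called in 1 of 15 cases (Egfl7, higher by 1.005), a call lost in plain CPM, with RLE factors, without mitochondrial transcripts, with a pseudocount of 2 and without MPS 10, NC 5 or TZG 43 (where 1 other was lower), and pericyte and smooth muscle genes in 1 of 14 (Cnn1, higher by 1.38). Interferon response genes were called lower in 2 of 24 cases and higher in 0, with 0 in plain CPM, 6 without MPS 10, 4 without TZG 27 and 1 without MPS 11, NC 6 or NC 7. All these list counts stand beside 0.878% of all genes called higher and 1.25% called lower.

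**Figure D3:**
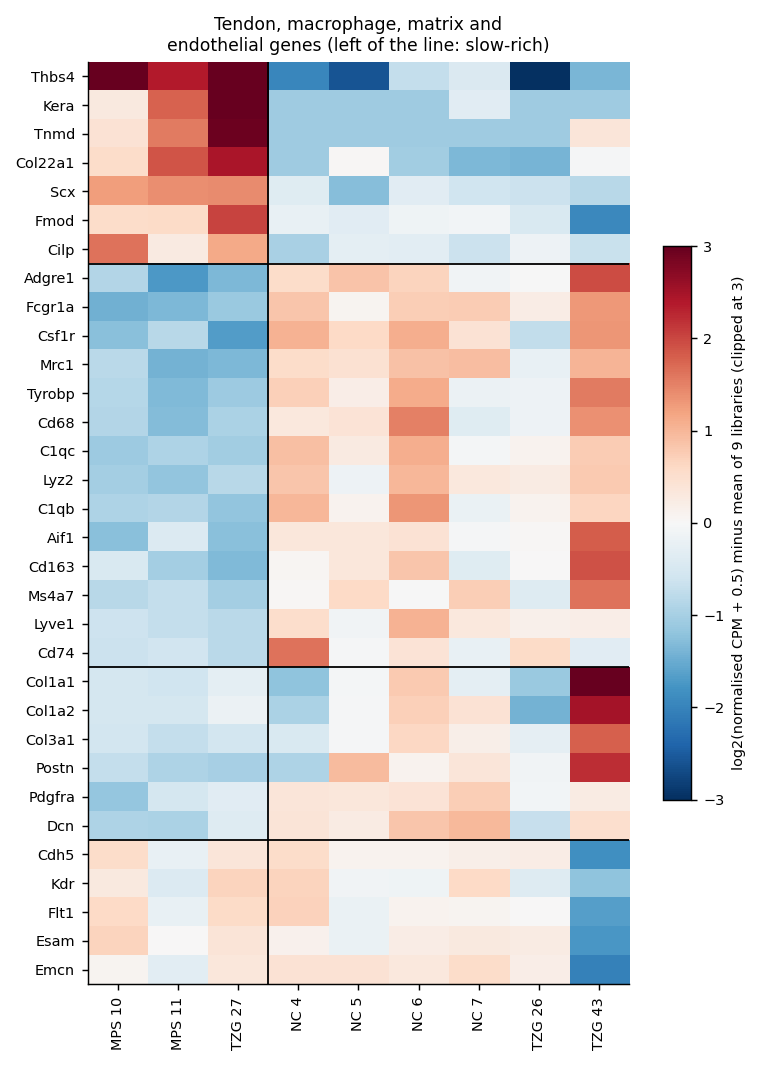
Log2 level relative to the mean of the 9 libraries (red above, blue below, clipped at 3) for tendon, macrophage, fibrous matrix and endothelial genes; slow-rich libraries are left of the vertical line. The 7 tendon and 14 macrophage genes drawn are those that were called, so their colours follow from that choice. They are on the red side (tendon) and the blue side (macrophage) in the 3 slow-rich libraries, palest for Kera and Tnmd in MPS 10. TZG 43 is high in collagens and low in endothelial genes. Of all 17 tendon genes of 1 CPM or more, 10 had a difference above 0.

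The remaining named genes had no common list. On the higher side was Ramp1, which forms part of the CGRP receptor. It stood at 45.5, 36.5 and 62.2 normalised CPM against 5.39 to 20.8 (median 8.34), a log2 difference of 2.20. Of 16 pain and inflammation genes of 1 CPM or more, 1 was called higher and 0 lower, beside 0.878% and 1.25% of all genes. In that list 6 of 16 had a difference above 0, and the median was -0.51. Between MPS and NC, 2 of the 16 were at least 2-fold higher and 7 at least 2-fold lower, without overlap. Over all genes 4.46% were higher and 3.21% lower by that rule. Label and slow-fibre content cannot be told apart in that contrast. Wfdc1, a secreted protease inhibitor, was 24.1, 30.3 and 26.04 against 1.77 to 13.98. Slc30a3, a zinc transporter known from synaptic vesicles, had 39, 68 and 60 counts in TZG 27, MPS 10 and MPS 11 and 0 to 3 in the slow-poor libraries. Fam131c differed by 2.21 at a low level. The unnamed long noncoding RNA AABR07010868.1 (chromosome 2:154030237-154033351) had 120, 216 and 243 counts in TZG 27, MPS 10 and MPS 11, 0 in all 6 slow-poor libraries, and 19 in MPS 14. It was singled out after its values were seen, because its slow-poor libraries were all at 0. Among the features the naming rule left out for want of a gene name was also the protein-coding LOC100909784 (ENSRNOG00000049639), at 118.2, 55.9 and 205.8 normalised CPM against 4.79 to 16.7, a log2 difference of 3.67. A second gene with that symbol, ENSRNOG00000045831, differed by 1.54 and was not called, and the sharing of reads between both was not tested. On the lower side, Adora1, the A1 adenosine receptor, was 0.23, 3.25 and 2.72 normalised CPM in TZG 27, MPS 10 and MPS 11 against 7.23 to 33.1 (median 11.4), a log2 difference of -2.67. Pdzd7, a scaffold protein known from the hair cells of the ear, was 0.613, 1.60 and 0.544 against 2.72 to 14.1, a difference of -2.65. Mt1m, a metallothionein, differed by -2.48, Gabrr2, a GABA receptor subunit, by -2.27, and Kcnip4, a potassium channel partner, by -2.01. The secreted phospholipase Pla2g2d differed by -2.17, the reductase Akr1c3 by -2.10, the leukocyte protease inhibitor Cst7 by -2.06, and the immune receptor genes Klra2, Fcer1g and Clec4a1 by -2.01, -1.92 and -1.89.

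The contrast could be read in 2 sets of libraries that share none: TZG 27 against TZG 26 and 43, where all carry the TZG label, and MPS 10 and 11 against the 4 NC libraries, where label and slow-fibre content cannot be told apart. TZG 27 was at least 2-fold above both other TZG libraries for 495 genes (3.99%) and below both for 511 (4.12%). The 2 MPS libraries were at least 2-fold higher than, and above, all NC libraries for 554 genes (4.46%), and at least 2-fold lower and below all of them for 398 (3.21%). The higher lists shared 67 genes, 12.1% of the MPS list and 13.5% of the TZG 27 list. The lower lists shared 117, 29.4% and 22.9% of them. A further 19 genes were higher in the MPS libraries and lower in TZG 27, and 16 the other way round. Across the 12413 genes the 2 differences had a Pearson correlation of 0.16 and a Spearman correlation of 0.06. These describe genes, which are not independent. The genes named first had to differ in both by the naming rule. Ankrd2 differed by 5.48 within TZG and 5.25 between MPS and NC, Mb by 3.82 and 2.89, Ldhb by 2.72 and 2.35, Csrp3 by 2.92 and 5.03, and Thbs4 by 6.73 and 4.25. Of the 109 and 155 genes, 57 and 101 were 2-fold apart in both. Their direction in both was fixed by the call, which let no slow-rich library overlap a slow-poor one.

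**Figure D4:**
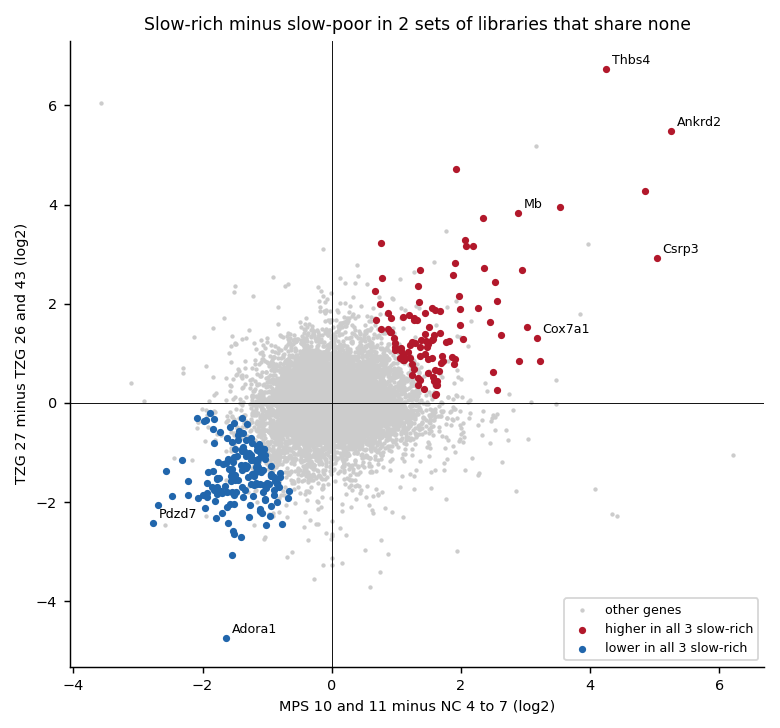
Each of 12413 genes by its log2 difference between MPS 10 and 11 and the NC libraries (horizontal) and between TZG 27 and TZG 26 and 43 (vertical); red and blue mark the 109 higher and 155 lower genes. The sign of the red and blue genes on both axes follows from the call. Ankrd2, Csrp3, Thbs4 and Mb lie far out on both axes, while most genes far out on 1 axis lie near 0 on the other.

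By list, the macrophage markers had a median difference of -1.70 within TZG and -1.50 between MPS and NC. For the 14 of 16 that were called lower, the sign in both was fixed by that call. Between the slow-poor TZG libraries and NC, which do not differ in set, the median was 0.08. Slow calcium genes had medians of 0.98 and 0.62. The tendon list had 1.54 within TZG and 0.12 between MPS and NC. Nuclear respiratory chain genes differed in sign under TMM scaling: -0.19 within TZG and 0.75 between MPS and NC. The MPS libraries were at least 2-fold higher than, and above, all NC libraries for 18 of 57, beside 4.46% of all genes. TZG 27 was at least 2-fold above both other TZG libraries for 1 of 57 and below both for 0, beside 3.99% and 4.12% of all genes. The slow-poor TZG libraries were 0.77 above NC for the same list. Cox5b, 1 of these subunits, was 511.2 normalised CPM in TZG 27, 884.8 and 426.4 in TZG 26 and 43, 710.2 and 821.7 in MPS 10 and 11, and 194.4 to 317.1 in NC. It was thus low in the NC libraries rather than high in the slow-rich ones. Cytosolic ribosomal protein genes had medians of -0.48 within TZG and 0.39 between MPS and NC. TZG 27 was at least 2-fold below both other TZG libraries for 1 of 60 of them, beside 4.12% of all genes. Schwann cell and myelin genes had -0.45 and 1.86. Endothelial genes had 1.14 and -0.07, and TZG 43, on the low side of the first, had a summed level of 302.6 CPM for that list against 966.4 to 1822 in the other 8 libraries. Scaling mattered to these medians. In plain CPM the median of all genes moved to 0.25 within TZG, -0.27 between MPS and NC and -0.48 between slow-poor TZG and NC, and in CPM without mitochondrial transcripts to 0.18, -0.30 and -0.41. List medians moved with it, and 3 of those given here changed sign: the respiratory chain median within TZG became 0.08 in plain CPM, the tendon median between MPS and NC -0.14 and -0.17 in these scalings, and the macrophage median between slow-poor TZG and NC -0.40 and -0.32. Relative to the median of all genes all 3 kept their direction.

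**Figure D5:**
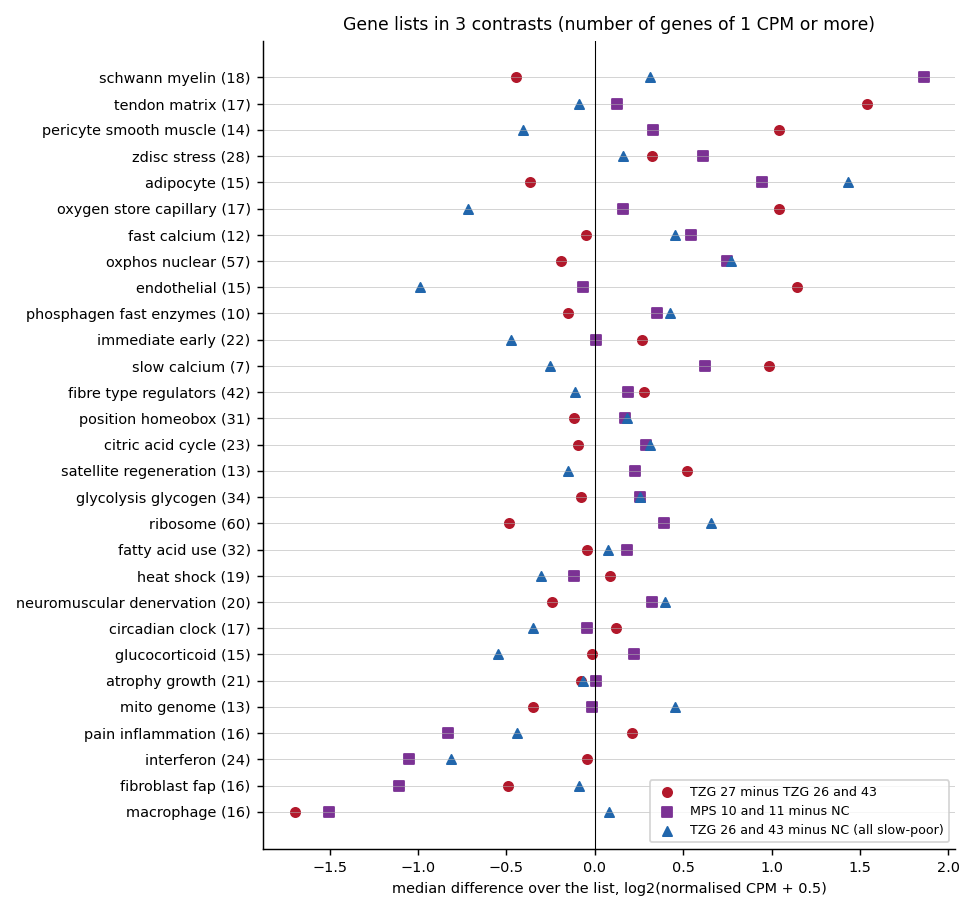
Median log2 difference of each gene list in 3 contrasts: TZG 27 against the other TZG libraries (red circles), MPS 10 and 11 against NC (purple squares), and the slow-poor TZG libraries against NC (blue triangles). Macrophage genes lie at -1.70 and -1.50 in the first and second and at 0.08 in the third, while respiratory chain genes lie at -0.19, 0.75 and 0.77. In plain CPM, -0.19 becomes 0.08 and the macrophage 0.08 becomes -0.40. For the 14 macrophage genes that were called, the sign in the first and second follows from that call.

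The label comparisons, which the rule did not use, were tested with edgeR's quasi-likelihood F test, two-sided, with p-values adjusted over all genes tested (Benjamini-Hochberg) and a threshold of 0.05. Among slow-poor libraries, TZG 26 and 43 against the 4 NC libraries gave 31 of 14455 genes (0.214%), 29 higher and 2 lower in TZG. None of the 264 genes apart between the sets was among them, and 0 of 264 is near that background. Pvalb, the calcium buffer of fast fibres, was 7883 ± 1808 normalised CPM (SD, n = 2) in TZG and 2209 ± 293 (n = 4) in NC, a log2 fold change of 1.83 ± 0.25 (SE, adjusted p = 0.0317 from edgeR). Actn2, the alpha-actinin of the Z-disc found in all fibres, rose by 2.10 ± 0.31 (adjusted p = 0.0398 from edgeR). Tceal7 rose by 3.96 ± 0.44 and Tceal5 by 4.73 ± 0.69, both of a family of transcription elongation factor-like proteins, and both highest in TZG 43. Mier3 fell by 2.46 and Morc3 by 1.27, both chromatin factors. By list, 5 of 60 ribosomal protein genes, 1 of 57 respiratory chain genes, 1 of 43 fibre type regulators and 0 of 17 macrophage markers passed, and those that passed were higher in TZG. The count moved widely with the libraries: 0 genes passed without NC 5, 1 without NC 6, 1 without NC 7, 5 without NC 4, 357 without TZG 43 and 1461 without TZG 26, and 1 passed in a fit of the compared groups only.

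Among slow-rich libraries, MPS 10 and 11 against TZG 27 gave 1 of 14455 genes (0.00692%). Grtp1, a GTPase regulator named for growth hormone, was 31.1 and 33.6 normalised CPM in the MPS libraries and 2.37 in TZG 27, a log2 fold change of 3.75 ± 0.42 (SE, adjusted p = 0.0465 from edgeR). TZG 27 was also below the 16.8 to 40.6 normalised CPM of the slow-poor libraries. TZG had 1 library here, assumed to vary like the other groups, and 0 genes passed without MPS 10 or without MPS 11. In a fit of the compared groups only, Grtp1 did not pass (edgeR adjusted p = 0.0565) and 1 other gene did. Over the alternatives its adjusted p ran from 1.34e-12 with DESeq2 to 0.336 with edgeR without MPS 11. With both fibre states mixed, TZG against NC gave 7 of 13719 genes (0.051%), 6 higher and 1 lower, and again none of the 264.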

How the data were processed

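Messenger RNA of rat muscle was sequenced in 10 libraries (SMARTER kit, as the labels' protocols say). The authors deposited a count per gene and library and FPKM (counts per gene length and depth) in 1 table of 32883 features, per the file headers. A second copy was identical and not used. Per the submitters' processing notes, the tools were edgeR 3.30.3, StringTie 1.3.3b, HISAT2 and fastp. Genome build, strand setting and the handling of reads shared by gene copies are not given in the sources used here. FPKM served only to set Myh7 beside Myh4.

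The counts entered edgeR 4.0.16 under R 4.3.3 (TMM factors, filterByExpr, 1 quasi-likelihood fit of the 9 libraries with 10000 CPM or more of Acta1), with limma 3.58.1 and DESeq2 1.42.0 as alternatives. The slow-rich and slow-poor sets are described, not tested. A gene was called where the 3 slow-rich libraries did not overlap the 6 slow-poor ones and means of log2(normalised CPM + 0.5) were at least 2-fold apart. Sarcomere isoforms were left out of these calls. Names were matched exactly: 808 of 847 entries in 36 gene lists were in the table, and where a name stood on several features the one with most counts was used. The members and the lists were chosen with earlier results of these data known. The genes named are the 15 largest differences in each direction that were called, 2-fold apart in both library sets and carried a proper gene name (clone and LOC, RGD or Ensembl identifiers were left out), up to 6 members per list by size of difference, and up to 10 per direction in each label test. Single contrasting members of a list (such as Pln, Ankrd1, Ppargc1a and C1qa) were added after their values were seen. Some genes are not reported here. The test script was checked on simulated counts. Plots came from matplotlib 3.10.9 under Python 3.11.15.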

Additional observations from a re-analysis of the deposited data

Results flagged for a closer look

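In MPS 14, the library set aside for its low Acta1, Myh7 was 41.0 CPM and Tnnt1 8.87 CPM, above the highest NC values of 3.05 and 2.16 CPM. That library was in neither set.

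A Dixon test looked for 1 library far from the others among the 4 NC libraries and among the 6 slow-poor ones, for the genes named in the text. For normally distributed values it marks about 1 in 20 by chance, and here it marked 28 of 155. It was run on unlogged levels, some of them 0, and the slow-poor libraries mix 2 labels, so no excess is read from that count. Some marks rest on few reads: Kera had 5 counts in NC 7, Cox7a1 7 in NC 4 and Tnmd 9 in TZG 43, against 0 in the libraries they were set beside. Among the slow-poor libraries, TZG 43 was high in normalised CPM for Csrp3 (21.7), Tnmd (0.845), Wfdc1 (13.98), Akr1c3 (8.16), Adgre1 (20.4), Cd163 (30.2), Tbx1 (98.2), Col1a1 (2511), Tceal5 (19.4) and Tceal7 (86.4), and low for Fmod (3.94) and Cdh5 (73.7). TZG 26 was high for Camk2b (67.7), Adora1 (33.1) and Cox5b (884.8), and NC 7 was low for Ppargc1a (0.591) and high for Kera (0.329). Among the NC libraries alone, NC 4 was high for Cox7a1 (0.464) and Cdh5 (385.6) and low for Morc3 (44.6). NC 5 was high for Col22a1 (2.01) and Akr1c3 (3.80) and low for Fcgr1a (4.10). NC 6 was high for Csrp3 (4) and Fcer1g (28.4), and NC 7 for Kera (0.329), Pdgfra (26.9) and Tbx1 (21.8).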

How the results depend on the processing

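The 109 higher and 155 lower genes became 72 and 77 with a pseudocount of 2, 25 and 10 at 4-fold, and 70 and 88 at a mean of 5 CPM. Scaling without mitochondrial transcripts gave 85 and 195, a higher share of 30.4% in place of 41.3%, and shifted the median of all genes to -0.12. Plain CPM gave 89 and 176, RLE factors 102 and 159, and no floor 134 and 169. A split by Tnnt1 gave the same libraries; no library reached 100 CPM of Myl2, so that split was not run. Leaving out 1 library gave 106 to 248 higher genes (248 without TZG 26, 199 without TZG 27) and 147 to 243 lower ones (243 without TZG 27, 240 without TZG 26). Keeping MPS 14 by its Myh7 CPM, as slow-poor, gave 163 and 199, of which 98 and 120 were among the first. Keeping it as slow-rich by its Myh7 per Acta1, chosen after seeing the data, left 31 and 49, of which 18 and 33 were, and 0 of 28 Z-disc, 4 of 17 tendon and 1 of 7 slow calcium genes. There Cxcl13 (0.30), Lyz2 (0.029), Ptprc (0.54), Cd8a (0.61) and Slc16a3 (-0.44) changed sign. The macrophage count was 12 to 14 of 16 under the other settings, except 0 at 4-fold and 1 with MPS 14 as slow-rich. No other setting turned the sign of a gene named as called.

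For TZG against NC among slow-poor libraries, 31 genes became 921 with DESeq2, 15 with limma-voom, 86 at a mean of 5 CPM, 2802 at an unadjusted p, 1 in a fit of the compared groups, and 0 to 1461 with 1 library left out. For MPS against TZG among slow-rich libraries, 1 became 14 with DESeq2, 0 with limma-voom, 2 with no filter, 2 at 5 CPM, 289 unadjusted, and 0 with either MPS library left out; leaving out TZG 27 would leave no TZG library. For TZG against NC over all libraries, 7 became 840 with DESeq2, 57 at 5 CPM, 2604 unadjusted, 3 in the compared groups alone, and 0 to 239 with 1 library left out: 239 without TZG 43, 33 without TZG 27, 15 without TZG 26, 3 without NC 6 and 0 without NC 4, 5 or 7. The causes were not tested. No paired analysis was possible because no 2 samples share a number.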

Other observations

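MPS 14 could be set beside the other libraries per unit of muscle RNA. Myh7 counts were 1.77% of Acta1 counts there, against 1.75% to 2.92% in the slow-rich libraries and at most 0.0575% in the slow-poor ones. Tnni1, the slow troponin I, was 1.45% against 0.485% to 0.803%, and Myoz2, a Z-disc protein of slow fibres, 0.493% against 0.0748% to 0.201%. Myl2 was at 0 counts in MPS 14, which allows up to 0.00948% of Acta1 (counting error only), below the 0.0327% to 0.0763% of the slow-rich libraries. The slow markers of MPS 14 thus did not keep 1 ratio to each other.

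Genes that mark position along the body or head varied within the sets. Tbx1, a factor of head and branchial muscle, was 143.9, 34.2 and 111.7 normalised CPM in TZG 27, MPS 10 and MPS 11, but also 98.2 in TZG 43 and 21.8 in NC 7, against 0.638 to 2.76 in TZG 26 and NC 4, 5 and 6. Of 31 such genes of 1 CPM or more, 1 was called higher in the slow-rich libraries (Pitx3, by 1.29) and 2 lower (Meis2, by -1.38, and Tbx18, by -1.05), beside 0.878% and 1.25% of all genes. Leaving out 1 library gave 1 to 4 higher and 1 to 3 lower.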
